A study of Mus musculus with 30 samples.

Results

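In mouse leukaemia cells treated with the Menin inhibitor MI-503, 1096 UTX peaks were at least 600 bp wide and lay where Menin had been found in vehicle-treated cells. These wide shared peaks are described here with their genes and with the width of the Menin peak beneath them. They were chosen by 3 conditions. The UTX peak had to span at least 600 bp, to lie on chromosomes 1 to 19, and to share at least 1 bp with a Menin peak of DMSO-treated cells. They made up 7.70% of the 14231 UTX peaks called in MI-503 and 14.7% of the 7479 UTX peaks shared with Menin on those chromosomes. The other 6383 shared peaks, all narrower than 600 bp, were the comparison.

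Chromatin immunoprecipitation with sequencing was carried out in WT-MA9, a line of mouse acute myeloid leukaemia labelled as carrying the MLL-AF9 fusion on an MSCV vector with GFP in every group used here. Antibodies to Menin and to UTX were each used in the vehicle DMSO and in the inhibitor MI-503, with cells collected on day 4 of treatment and 1 library per condition. No dose of the inhibitor is given in these labels. Of 30 labelled libraries, the peak lists of 4 were analysed and 26 were not analysed here. The lists held 11195 Menin peaks in DMSO, 8 Menin peaks in MI-503, 217 UTX peaks in DMSO and 14231 UTX peaks in MI-503. No RNA was analysed here, so the labelled cell type could not be set against marker expression. Since each condition had 1 library, no test between conditions was possible. Intervals given with percentages are exact 95% binomial intervals (Clopper-Pearson) and cover counting error only.

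Menin is a scaffold that tethers the histone H3 lysine 4 methyltransferases MLL1 and MLL2 to promoters, and the MLL-AF9 fusion oncoprotein also depends on it. UTX, also called KDM6A, removes methyl groups from histone H3 lysine 27 and is a subunit of the MLL3 and MLL4 complexes. MI-503 occupies the pocket of Menin that binds MLL1, so Menin and MLL1 lose their contact. The width of a called peak is the stretch over which the pileup of fragments stays above the caller's threshold, so it grows with signal and depth as well as with the length of chromatin that the protein covers. NF-Y is a trimeric transcription factor that binds the pentamer CCAAT in promoters, and libraries for it are among those labelled in this series.

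As examples of promoters at wide peaks, 6 sequences from RefSeq (GRCm38.p6) are printed, each 300 bp long from 250 bp before to 50 bp after the annotated start. The sequences are written 5′ to 3′ on the strand of the gene. In the first 4, capitals mark each CCAAT or its reverse complement ATTGG, and these 4 genes were chosen for a very wide UTX peak, a very wide Menin peak or a high fold enrichment. Gsk3b lies at chr16:38088751-38089050 on the plus strand and Sf1 at chr19:6363440-6363739 on the plus strand. Nr1d2 lies at chr14:18239057-18239356 on the minus strand and Ptbp1 at chr10:79854182-79854481 on the plus strand.
Gsk3b: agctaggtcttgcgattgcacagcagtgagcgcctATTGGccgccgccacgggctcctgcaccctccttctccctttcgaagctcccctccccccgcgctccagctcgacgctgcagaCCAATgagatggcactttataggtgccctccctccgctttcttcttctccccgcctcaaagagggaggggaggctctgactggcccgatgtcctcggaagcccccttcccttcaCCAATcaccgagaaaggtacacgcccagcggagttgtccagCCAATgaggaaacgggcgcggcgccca
Sf1: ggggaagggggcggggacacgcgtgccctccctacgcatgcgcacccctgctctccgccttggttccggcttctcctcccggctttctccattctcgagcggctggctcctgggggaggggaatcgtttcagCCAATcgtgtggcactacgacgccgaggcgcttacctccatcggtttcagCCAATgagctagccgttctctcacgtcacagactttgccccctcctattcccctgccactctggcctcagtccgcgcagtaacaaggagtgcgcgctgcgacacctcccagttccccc
Nr1d2: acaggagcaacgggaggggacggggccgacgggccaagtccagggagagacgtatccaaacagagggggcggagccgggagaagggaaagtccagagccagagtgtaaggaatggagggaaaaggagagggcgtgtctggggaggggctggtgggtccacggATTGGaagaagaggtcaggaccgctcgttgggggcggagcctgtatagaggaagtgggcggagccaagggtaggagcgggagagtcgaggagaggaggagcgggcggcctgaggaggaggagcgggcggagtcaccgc
Ptbp1: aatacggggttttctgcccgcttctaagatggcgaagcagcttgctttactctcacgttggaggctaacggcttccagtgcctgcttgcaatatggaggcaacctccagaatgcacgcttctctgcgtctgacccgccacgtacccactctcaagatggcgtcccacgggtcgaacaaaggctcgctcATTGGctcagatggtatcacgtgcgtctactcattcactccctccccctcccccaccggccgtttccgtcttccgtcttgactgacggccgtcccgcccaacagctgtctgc
The Gsk3b promoter held 4 CCAAT pentamers, Sf1 held 2, and Nr1d2 and Ptbp1 held 1 each. The UTX and Menin peaks both covered all 300 bp at Gsk3b, Sf1 and Ptbp1. At Nr1d2 the Menin peak covered all 300 bp and the UTX peak covered 0.

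The other 2 promoters belong to genes of protein folding in the endoplasmic reticulum, and were chosen after their values were seen. Capitals in them mark the endoplasmic reticulum stress element, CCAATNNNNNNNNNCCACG on either strand, which contains a CCAAT and is known as a joint site of NF-Y and the stress factor ATF6. Hspa5, which encodes the chaperone BiP, lies at chr2:34771840-34772139 on the plus strand. Hsp90b1, which encodes the chaperone GRP94, lies at chr10:86705395-86705694 on the minus strand.
Hspa5: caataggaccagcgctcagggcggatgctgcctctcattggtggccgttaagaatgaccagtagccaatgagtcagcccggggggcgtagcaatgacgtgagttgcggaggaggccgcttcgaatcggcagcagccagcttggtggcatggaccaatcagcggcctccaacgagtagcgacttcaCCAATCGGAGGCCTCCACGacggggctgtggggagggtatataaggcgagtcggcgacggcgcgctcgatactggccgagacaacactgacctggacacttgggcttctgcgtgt
Hsp90b1: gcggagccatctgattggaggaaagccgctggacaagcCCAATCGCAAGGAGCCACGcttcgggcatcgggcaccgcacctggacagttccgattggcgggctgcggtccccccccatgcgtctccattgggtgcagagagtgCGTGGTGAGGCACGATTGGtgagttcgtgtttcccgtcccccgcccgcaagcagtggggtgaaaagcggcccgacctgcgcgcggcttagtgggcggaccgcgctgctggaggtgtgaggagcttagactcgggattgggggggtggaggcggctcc
Hspa5 held 1 such element among 4 CCAAT pentamers, and Hsp90b1 held 2 elements among 6. A match to these letters is a description of the sequence and shows no binding by itself.

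Menin peaks were wider beneath wide UTX peaks than beneath narrower ones. The median Menin width in DMSO was 502.5 bp at wide UTX peaks (quartiles 367.75 and 658) and 322 bp at narrower UTX peaks (quartiles 242 and 428), a difference of 180.5 bp. A Menin peak of at least 600 bp lay beneath 371 of 1096 wide UTX peaks, or 33.9% (31.0 to 36.7). The same held for 489 of 6383 narrower UTX peaks, or 7.66% (7.02 to 8.34), and for 11.5% of all shared peaks. The ranges overlapped widely, with Menin from 179 to 3447 bp at wide UTX peaks and from 179 to 1767 bp at narrower ones. The width of 179 bp was the lowest of both lists. The UTX widths themselves chose the members and are given only as a description. Their median was 709 bp (quartiles 646 and 804.25, range 600 to 6060) against 350 bp at the narrower peaks.

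**Figure D1:**
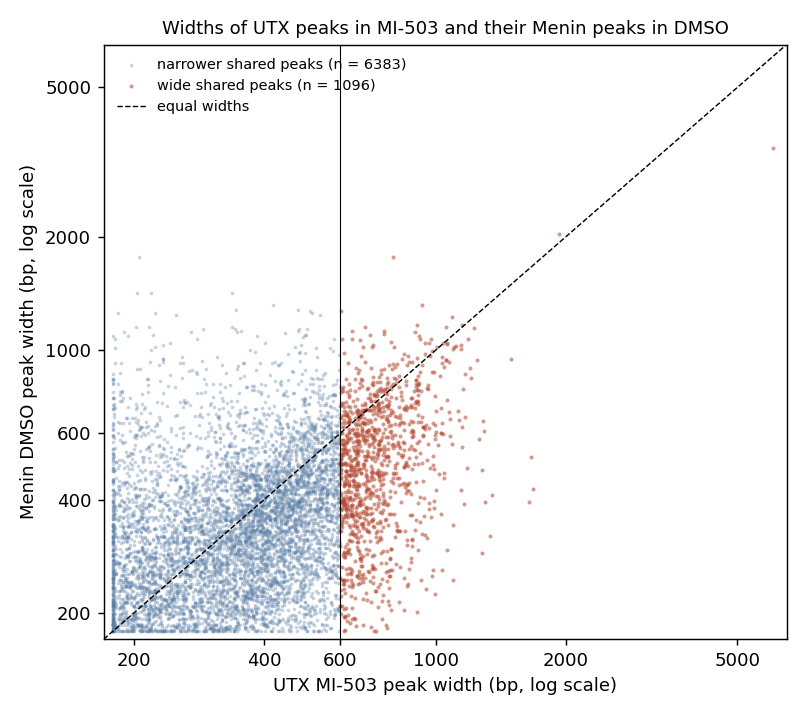
Width of each shared UTX peak in MI-503 (horizontal, bp, log scale) against the width of the Menin peak in DMSO that shares most bases with it (vertical, bp, log scale), with 1096 wide peaks in red, 6383 narrower peaks in blue, a vertical line at 600 bp and a dashed line at equal widths. Wide peaks lie mostly below the dashed line, and Menin widths at any given UTX width spread widely.

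Menin was wider in each wider band of UTX width. Its median was 276 bp at UTX peaks below 300 bp and 318 bp at those from 300 to 400 bp. It was 460 bp at UTX peaks from 600 to 700 bp, 523 bp from 700 to 800 bp and 580 bp from 800 to 1000 bp. The 70 UTX peaks of at least 1000 bp had a median Menin width of 660.5 bp, and 62.9% of them lay on a Menin peak of at least 600 bp. There was no jump at 600 bp, where the band from 500 to 600 bp had a median of 416 bp. Spearman's rho between the 2 widths was 0.40 over all 7479 shared peaks and 0.27 among the wide ones. These peaks come from the same 2 libraries and share their depth, so the correlations are descriptions. The cut at 600 bp also narrows the range of UTX width among the wide ones, which can lower rho by itself.

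Wide UTX peaks were also the stronger ones, and the width of Menin was therefore compared at like strength. The fold enrichment of a peak, the authors' ratio of summit to background, had a median of 16.8 at wide and 9.60 at narrower UTX peaks. The summits held a median of 32 and 19 UTX fragments. For Menin the median fold was 8.995 at wide and 6.93 at narrower UTX peaks, with 49 and 35 fragments at the summit. The shared peaks were split into quintiles by UTX fold. From the lowest to the highest quintile, the median Menin width at wide UTX peaks was 399.5, 389.5, 457, 509 and 522 bp. At narrower UTX peaks it was 279, 284.5, 321, 360 and 401 bp. Menin was thus wider under wide UTX peaks in each of the 5 quintiles, although only 18 wide peaks fell in the lowest. Splitting by Menin fold instead gave medians of 289, 383, 466.5, 499 and 642.5 bp at wide UTX peaks against 220, 269, 321, 383 and 490 bp. Within a quintile the folds of the groups still differed a little, with medians of 22.2 and 20.8 for UTX in the highest quintile.

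**Figure D2:**
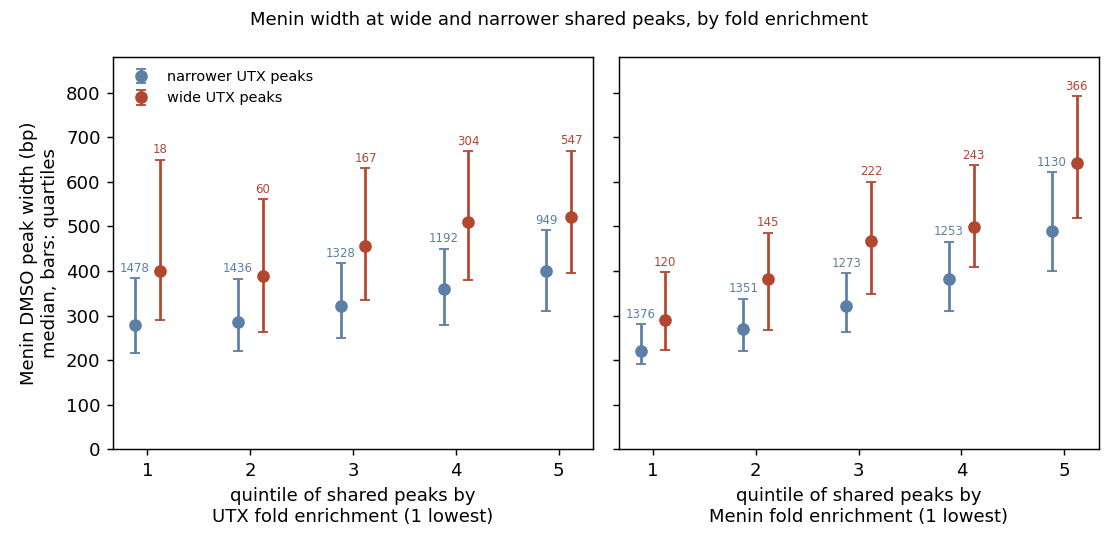
Median width of the Menin peak in DMSO (vertical, bp, bars from lower to upper quartile) at wide (red) and narrower (blue) UTX peaks, in quintiles of shared peaks by UTX fold enrichment (left) and by Menin fold enrichment (right), with the number of peaks above each bar. The wide group has the higher median in every quintile of both panels, for example 522 against 401 bp in the highest UTX quintile, and the quartile ranges overlap.

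Although Menin was wider there, it did not keep pace with UTX. The Menin peak was wider than the UTX peak at 14.7% of wide UTX peaks and at 45.7% of narrower ones. It spanned at most 50% of the UTX width at 261 wide peaks, or 23.8% (21.3 to 26.4), against 5.30% (4.76 to 5.87) of narrower peaks. The median ratio of UTX to Menin width was 1.45 and 1.04. Several separate Menin peaks lay beneath 89 wide UTX peaks, or 8.12% (6.57 to 9.90), against 1.30% (1.04 to 1.61) of narrower UTX peaks. Of these 89, 84 lay over 2 Menin peaks, 4 over 3 and 1 over 4. A cut on UTX width moves all of these ratios and counts by itself, since a longer peak can hold more Menin peaks, so they are given as descriptions. The summits of both proteins lay a median of 39 bp apart at wide and 40 bp at narrower peaks. At narrower peaks within the 10th to 90th percentile of the members' UTX fold the distance was 31 bp. They lay within 100 bp at 78.5% (75.9 to 80.9) of wide and 80.5% (79.5 to 81.5) of narrower peaks.

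The wide peaks could be placed in 3 classes by their Menin peak. In 371 the Menin peak was itself at least 600 bp wide, with a median Menin fold of 12.9. In 465 it was narrower than that but spanned more than 50% of the UTX peak, with a median fold of 8.99. In 260 it was narrower than 600 bp and spanned at most 50% of the UTX peak, with a median fold of 5.81 and a median width of 283 bp. UTX fold differed less across these classes, at 17.2, 16.98 and 15.2. The classes were set by Menin width, which had a Spearman rho of 0.58 with Menin fold among members. The order of the Menin folds is therefore in part built in, and its contrast with UTX fold is a description. Wide Menin peaks were seldom without UTX. Of 738 Menin peaks of at least 600 bp on chromosomes 1 to 19, 97.3% were touched by a UTX peak in MI-503 and 50.5% by a wide one. The same shares over all 10982 Menin peaks there are not given here. A wider Menin peak has more bases that can be touched, and the part of that in these shares was not tested.

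The widest members stood at genes with diverse roles, and in most the Menin peak sharing most bases with UTX was much narrower. Predicted genes aside, the widest at a gene boundary was the peak of Kmt2e, a SET-domain chromatin gene, at chr5:23432590-23434268, with 1679 bp of UTX over 427 bp of Menin. Zfp687, a zinc finger gene, had 1664 bp of UTX over 518 bp of Menin. At Gsk3b, which encodes a kinase of glycogen and Wnt signalling, UTX spanned 1498 bp (chr16:38088445-38089942) and Menin 947 bp. Cic, which encodes the repressor Capicua, had 1348 bp over 411 bp, and the pair Cep57 and Fam76b had 1335 bp over 320 bp. Ubb, a polyubiquitin gene, had 1301 bp over 393 bp. Ankhd1, Rbm14 and Higd1a followed with UTX widths of 1295, 1278 and 1259 bp and Menin widths of 609, 288 and 580 bp. The peak of 1289 bp at chr17:34118603-34119891 began 9 bp downstream of an annotated start of Brd2, the gene of a reader of acetylated histones, and lay near the boundary of H2-DMa, with 648 bp of Menin. In all 10, the Menin peak sharing most bases was narrower than UTX. These 10 were picked for UTX width, which by itself favours a narrower Menin peak, so the contrast is a description. Among the members picked for Menin width, named next, the Menin peak was mostly the wider. At Zfp687, Cic, Cep57 with Fam76b, Ubb and Ankhd1, 2 Menin peaks lay under the UTX peak. The widths given there leave out the other Menin peak.

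The members with the widest Menin peaks were other genes. Nr1d2, which encodes the clock repressor REV-ERB beta, had the widest Menin peak among members at boundaries of named genes, with 1274 bp, under a UTX peak of 603 bp. The UTX peak there lay from 289 to 891 bp downstream of the start, and the Menin peak reached 430 bp upstream of it. Sf1, which encodes the protein that binds intron branch points, had nearly equal widths, with 1148 bp of UTX and 1164 bp of Menin at 29.2-fold and 15.8-fold. Under that UTX peak lay 2 Menin peaks, and the width given is of the peak sharing most bases. Cactin had 905 bp of UTX over 1166 bp of Menin, and Mob3a had 686 bp over 1149 bp. The divergent pair of Ddx5, an RNA helicase gene, and Cep95 had 1054 bp over 1152 bp. At Dazap2, UTX was called as 2 wide peaks of 641 and 758 bp over 1 Menin peak of 1121 bp, the only Menin peak paired with 2 members. Spata5 with Nudt6, Dnpep, and Armc5 had Menin widths of 1146, 1116 and 1105 bp. A Menin peak of 2038 bp at chr9:124422805-124424842, by predicted genes, was wider but is not described further.

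At the other end, the 4 members named next had Menin peaks of 179 to 183 bp, at or just above the narrowest width in that list. Plcg2, which encodes a phospholipase of immune receptor signalling, had 614 bp of UTX at 8.76-fold over 179 bp of Menin at 4.02-fold. The pair Trip12 and Fbxo36 had 726 bp over 179 bp, Cenpn with Cmc2 616 bp over 180 bp, and Fam185a 708 bp over 183 bp. Their Menin summits held 15 to 29 fragments, against a median of 49 over all members, and the part of this low count in the width was not tested.

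The strongest members by UTX fold were not the widest. At gene boundaries they were Ptbp1, a splicing repressor gene, with 43.8-fold and 904 bp, and Hjurp, which encodes the chaperone of the centromeric histone CENP-A, with 43.4-fold and 838 bp. The local background at Hjurp exceeded the lowest 3.45 times for UTX and 9.07 times for Menin. Megf9 had 42.1-fold and 826 bp. Fbxw7, which encodes the substrate receptor of a ubiquitin ligase for cyclin E and MYC, had 41.3-fold and 679 bp. Dnajb9, a co-chaperone gene of the endoplasmic reticulum, had 40.5-fold and 696 bp. Menin beneath these 5 was 783, 527, 592, 577 and 641 bp wide, each above the median of all members. The highest fold of any member, 46.5, was at an annotated start of Hnrnpl outside the gene boundaries used here, and was added after its value was seen. Of the 2 Menin peaks under that UTX peak, the peak sharing most bases was 259 bp wide. That is below the median of 502.5 bp of all members. Among members, UTX width and UTX fold had a Spearman rho of 0.13, against 0.67 over all shared peaks. The cut at 600 bp narrows the range of UTX width among members, which can lower rho by itself, so no contrast is drawn.

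**Figure D3:**
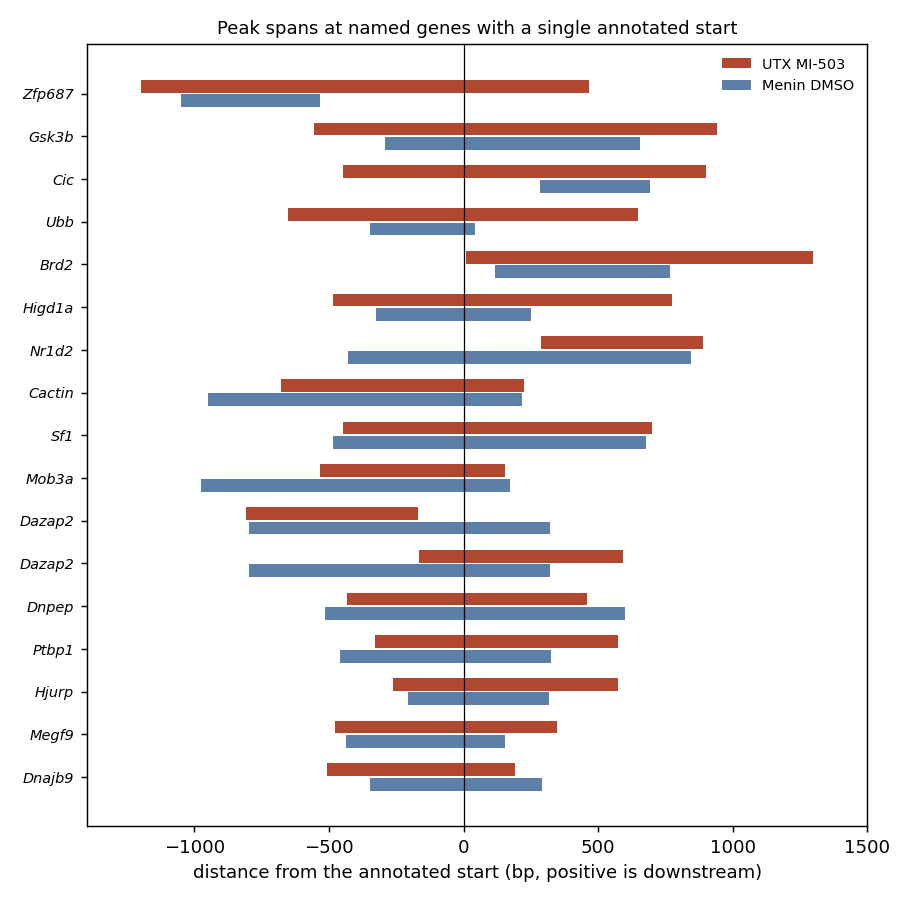
Span of the UTX peak in MI-503 (red) and of the Menin peak in DMSO (blue) at named members with 1 annotated start, on a horizontal axis of distance from the start in bp (positive is downstream), with 1 line per member. Only the Menin peak sharing most bases with UTX is drawn, although 2 Menin peaks lay under UTX at Zfp687, Cic, Ubb and Sf1. UTX reaches beyond the drawn Menin peak on both sides at Gsk3b, Ubb and Higd1a. The drawn spans nearly match at Sf1, and Menin reaches beyond UTX upstream at Cactin and Mob3a. The 2 lines of Dazap2 share 1 Menin peak.

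Around annotated starts, wide UTX peaks reached further into the gene than did the Menin peak sharing most bases with them. Among 707 wide peaks with 1 annotated start, UTX reached a median of 368 bp upstream and 347 bp downstream of the start, and Menin 315 and 182 bp. UTX went further than Menin by a median of 46 bp upstream and of 147 bp downstream. The narrower peaks had 3669 such starts, with UTX reaching 206 and 175 bp and Menin 210 and 130 bp. Their differences were -1 bp upstream and 21 bp downstream. UTX extended further downstream than Menin at 84.2% of wide and 60.1% of narrower peaks, and further upstream at 69.4% and 49.3%. A wider UTX peak must exceed Menin somewhere, but the rule did not fix the side. In the highest quintile of UTX fold the downstream differences were 137 bp at wide and 23.5 bp at narrower peaks, and the upstream ones 48 and 10 bp. Further Menin peaks under the same UTX peak were left out of these reaches. Of all shared peaks, 8.12% of wide and 1.30% of narrower ones lay over several Menin peaks. The part of this in the differences was not tested.

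**Figure D4:**
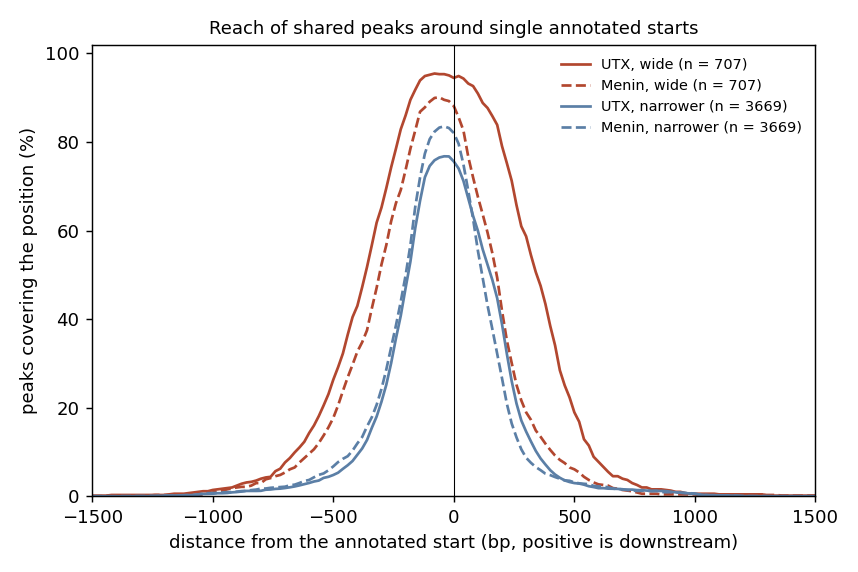
Percentage of peaks that cover each position around the annotated start (horizontal, bp, positive is downstream) for UTX in MI-503 (solid) and Menin in DMSO (dashed), at 707 wide (red) and 3669 narrower (blue) shared peaks with 1 start. The gap between the red lines is larger downstream of the start than upstream, matching median differences of 147 and 46 bp, and the blue lines also part downstream, where their median difference is 21 bp. Only the Menin peak sharing most bases with each UTX peak is counted.

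Most wide peaks were near an end of a gene, and ends of 2 or more genes were near a larger share of them than of narrower peaks. The summit lay within 1 kb of either end of an annotated protein-coding gene, called a gene boundary here, in 915 of 1096 wide peaks, or 83.5% (81.2 to 85.6). This was 72.0% (70.9 to 73.1) at narrower peaks and 73.7% over all shared peaks. Boundaries of 2 or more genes lay near 22.4% (20.0 to 25.03) of wide and 13.8% (12.9 to 14.6) of narrower summits. A pair of annotated starts on opposite strands pointing apart was found at 151 wide peaks, or 13.8% (11.8 to 15.96), against 6.69% (6.09 to 7.33) of narrower peaks. Over all shared peaks these 2 shares were 15.0% and 7.73%. Of the wide peaks, 11.9% (10.0 to 13.9) lay inside a gene away from its boundaries and 4.65% (3.48 to 6.07) outside genes, against 17.5% and 10.5% of narrower peaks. Among narrower peaks within the 10th to 90th percentile of the members' fold, 80.7% were at a boundary. Their median fold was 13.7, still below the 16.8 of the wide peaks. Genes with a wide peak had a median length of 19310 bp, close to the 20882 bp of genes with narrower shared peaks only.

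The widest members without a boundary within 1 kb included several whose summit lay just beyond that distance from an end of a gene. The member of 6060 bp, the widest of all, lay at chr17:39842890-39848949 over annotations of ribosomal RNA repeats (Rn18s-rs5 and AY036118). The local background there exceeded the lowest in the UTX list 28.5 times, and Menin spanned 3447 bp where its own background exceeded the lowest 61.8 times. In DMSO 3 UTX peaks overlapped it. Rbm15, an RNA-binding gene in the writing of m6A marks, had 1642 bp of UTX over 393 bp of Menin. The background there exceeded the lowest 4.46 times for UTX and 3.84 times for Menin. The phosphatase gene Ppm1b had 1279 bp over 481 bp. The UTX peaks at Rbm15 and Ppm1b both covered an annotated start of the gene that lay away from the gene ends used as boundaries. A peak in Jund, an AP-1 factor gene, had 1189 bp over 1072 bp, and 1 by Hmga1, an architectural chromatin gene, 1168 bp over 665 bp. UTX overlapped 2 Menin peaks at Rbm15, 3 by Hmga1 and 4 at the ribosomal RNA repeat. Each Menin width is of the peak sharing most bases. Peaks whose background exceeded the lowest by 3 times or more were 1.64% of wide and 1.79% of narrower peaks.

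The genes were then taken by lists. Of 6019 protein-coding genes with a shared peak at a boundary, 1156 had a wide one, or 19.2%. Genes of folding and stress in the endoplasmic reticulum had the highest share among the 31 lists. Of 25 listed, 23 had a shared boundary peak and 14 a wide one, or 60.9% (38.5 to 80.3). The list was chosen with earlier results of these data known, so this count is no independent evidence. The 14 peaks were also strong. The median UTX fold over the 23 genes was 25.5 against 11.8 over all 6019 genes, and 18 of the 23 fell in the highest quintile of fold. Of those 18, 12 were wide, or 66.7% (41.0 to 86.7), against 39.0% (36.5 to 41.5) of all genes in that quintile.

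Within this list the wide peaks covered chaperones, folding enzymes, stress factors and the disposal machinery. The disulfide isomerase gene P4hb had 1057 bp of UTX over 942 bp of Menin. Ddit3, which encodes the stress factor CHOP, had 1041 bp over 598 bp. Atf4, its upstream activator, had 931 bp over 913 bp. The co-chaperone gene Dnajb11 had 789 bp over 447 bp, and Syvn1, a ubiquitin ligase gene of protein disposal, 783 bp over 260 bp. Hspa5 had 680 bp of UTX at 28.0-fold over 390 bp of Menin, and Hsp90b1 had 709 bp at 25.7-fold over 492 bp. The other wide ones were Manf, Calr, Canx, Herpud1, Dnajb9, Hyou1 and Pdia4, from 620 to 774 bp of UTX. The stress sensor genes Ern1 and Eif2ak3 had narrower peaks of 346 and 535 bp, and the factor gene Xbp1 had 413 bp. The list's Menin widths were not far from those of other members, with a median of 502.5 bp at the 14 genes against 504.5 bp over the 1156.

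RAB genes, which encode small GTPases of vesicle traffic, had the second highest share among lists with at least 10 such genes. Of 27 with a shared boundary peak, 13 had a wide one, or 48.1% (28.7 to 68.1). Rab5b, of early endosomes, had 1026 bp of UTX over 702 bp of Menin, and Rab40c 926 bp over 779 bp. Rab8a and Rab10, both of transport to the plasma membrane, had 900 bp over 830 bp and 874 bp over 744 bp. The median Menin width at the 13 was 643 bp. In the highest quintile of fold, 8 of 10 were wide, or 80.0% (44.4 to 97.5).

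Other lists lay nearer the share over all genes, and the intervals of most included it. Among FOXO, sestrin and growth brake genes 5 of 11 were wide. Tsc22d4 had 899 bp, Foxo3 881 bp, Klf10 769 bp and Ddit4, an inhibitor of mTORC1, 757 bp. Among clock genes 5 of 13 were wide, with Ciart at 945 bp, Bhlhe40 at 669 bp and Cry1 at 657 bp. In the AP-1 and ATF list 8 of 22 were wide, among them Atf7 with 842 bp, Atf3 with 792 bp and Junb with 717 bp. Of cholesterol synthesis genes 6 of 18 were wide, led by Insig1, which encodes a sterol sensor, with 995 bp, and Mvk with 920 bp. The splicing list had 21 of 76, or 27.6% (17.99 to 39.1), with Hnrnph3 at 1159 bp, Hnrnpul2 at 1149 bp, Hnrnpk at 1124 bp and Srsf2 at 1116 bp. Srsf2 had 1023 bp of Menin, while Hnrnpul2 had 623 bp.

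The cytosolic ribosomal protein genes were at the overall share, with 11 of 60, or 18.3% (9.52 to 30.4). Rpl10a had 986 bp of UTX over 260 bp of Menin, and Rps19 had 780 bp over 911 bp. Translation initiation factor genes had 11 of 36, led by Eif4g2 with 843 bp over 248 bp. Mitochondrial ribosomal protein genes had 11 of 46, led by Mrps18b with 899 bp over 811 bp.

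Some lists had few wide peaks, though only for Zfp and solute carrier genes did the interval lie below 19.2%. Zfp zinc finger genes had 11 of 104, or 10.6% (5.40 to 18.1), and solute carrier genes 9 of 87, or 10.3% (4.84 to 18.7). In the highest quintile of fold these were 3 of 16, or 18.75% (4.05 to 45.6), and 4 of 19, or 21.1% (6.05 to 45.6), and both intervals include the 39.0% of all genes there. Of 24 aminoacyl-tRNA synthetase genes 1 was wide (0.105 to 21.1%), Sars2, which shares its peak of 779 bp with Mrps12. Of 28 proteasome genes 2 were wide (0.877 to 23.5%), Psma2 and Psme3. Of 18 haematopoietic transcription factor genes 1 was wide (0.141 to 27.3%), Klf6 with 636 bp of UTX over 261 bp of Menin. Of 17 genes of MLL complexes and partners 1 was wide (0.149 to 28.7%), Pagr1a, which encodes a subunit of the MLL3 and MLL4 complexes, with 813 bp over 457 bp. Men1, the gene of Menin itself, had a UTX peak of 227 bp, Kmt2a, the gene of MLL1, 361 bp, and Kmt2d, the gene of MLL4, 521 bp. None of 3 HOXA and cofactor genes (Hoxa7, Hoxa11 and Pbx3) and none of 4 myeloid granule and surface genes (Camp, S100a8, S100a9 and Csf2ra) was wide. These small counts allow wide limits, up to 70.8% for 0 of 3 and up to 60.2% for 0 of 4. The narrower genes named in these lists were chosen after their values were seen.

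**Figure D5:**
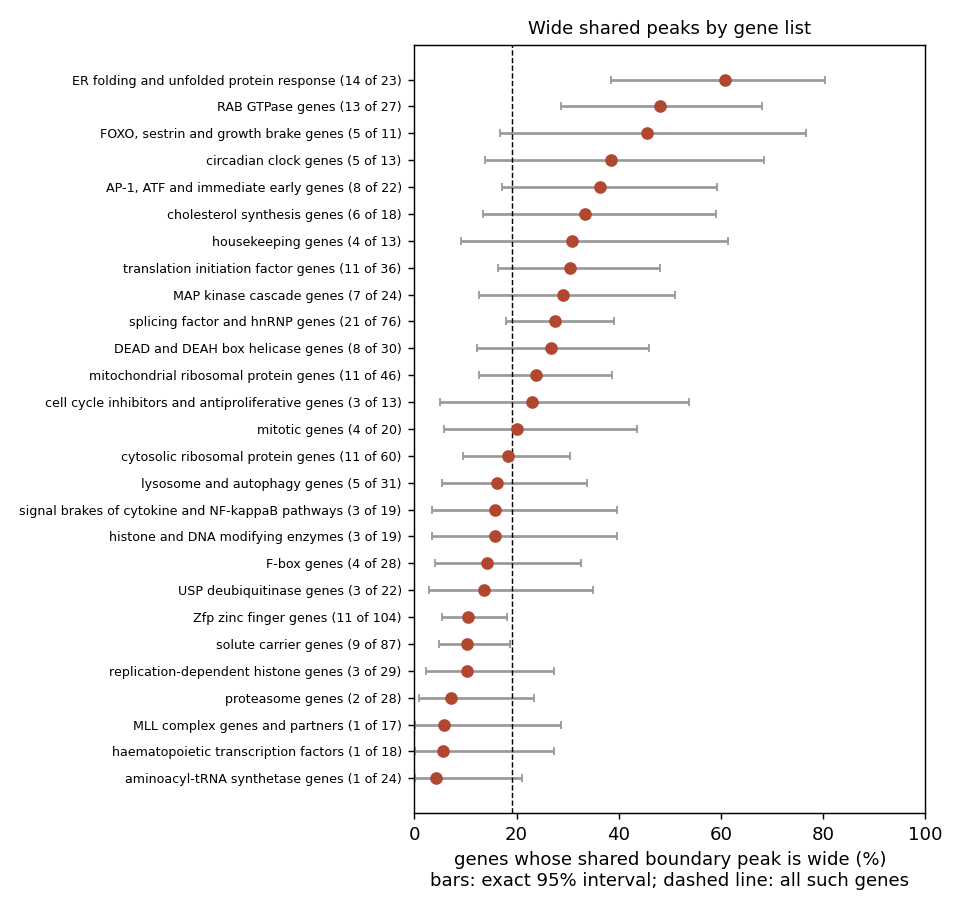
Percentage of genes with a shared boundary peak whose peak is wide, for each list with at least 10 such genes, with exact 95% intervals as bars and the share over all 6019 genes, 19.2%, as a dashed line. Endoplasmic reticulum folding (14 of 23) and RAB genes (13 of 27) lie to the right of the line with their intervals, and Zfp and solute carrier genes to the left.

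CCAAT was more frequent in promoters at wide peaks, and the difference was smaller at like fold enrichment. Motifs were searched on both strands of the 300 bp promoters, of which 882 were taken for wide and 4154 for narrower shared peaks. Each was the promoter of the annotated start nearest the UTX summit, within 1 kb, and need not lie under the peak. At peaks with 1 start, UTX covered that start at 94.5% of wide and 75.6% of narrower peaks. The part of this in the CCAAT shares was not tested. CCAAT was present in 57.0% (53.7 to 60.3) at wide peaks, 42.9% (41.4 to 44.4) at narrower peaks and 38.2% of all 21263 promoters. Copies numbering 2 or more were present in 31.2% (28.1 to 34.4), 18.97% (17.8 to 20.2) and 12.8%. In the highest quintile of UTX fold, CCAAT was present in 65.6% (61.0 to 69.9) at wide and 61.3% (57.7 to 64.9) at narrower peaks, and these intervals overlap. In the lowest quintile the narrower peaks had 33.4% (30.1 to 36.8), and the wide peaks, with only 12 promoters, 41.7% (15.2 to 72.3). The share was higher at wide peaks in each of the 5 quintiles, and the intervals overlapped in each. Among wide peaks CCAAT was present in 53.1% (47.2 to 58.9) where Menin was at least 600 bp wide. It was present in 56.25% (51.1 to 61.3) where Menin was narrower than 600 bp and spanned more than 50% of the UTX peak. Where Menin was narrower than 600 bp and spanned at most 50%, it was present in 64.1% (57.1 to 70.6). Each of these intervals overlaps the others.

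The GC box, the ETS motif and the cyclic AMP response element differed less between wide and narrower peaks. The GC box GGGCGG was present in 79.7% (76.9 to 82.3) of promoters at wide and 76.2% (74.8 to 77.5) at narrower peaks, against 46.2% of all promoters. The ETS motif CCGGAAG was present in 24.5% and 24.4%, against 11.6%. The cyclic AMP response element TGACGTCA was present in 5.22% (3.84 to 6.90) and 4.81% (4.18 to 5.51), and the E-box CACGTG in 15.8% (13.4 to 18.3) and 12.5% (11.5 to 13.6). The median number of CpG was 25 at wide, 23 at narrower and 13 over all promoters. The endoplasmic reticulum stress element was rare, and present in 6 of 882 promoters at wide peaks, or 0.680% (0.250 to 1.47), in 7 of 4154 at narrower peaks, or 0.169% (0.0678 to 0.347), and in 30 of all 21263. These intervals overlap. In the endoplasmic reticulum list it was present in 5 of 12 promoters with a wide peak (Hspa5, Hsp90b1, Calr, Canx and Syvn1) and 3 of 9 with a narrower one. Leaving that element aside, 2 different motifs shared a base in 0.809% of promoters.

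A UTX peak was rarely called at these sites in DMSO. The 217 peaks of that list overlapped 55 of 1096 wide peaks, or 5.02% (3.80 to 6.48), and 125 of 6383 narrower peaks, or 1.96% (1.63 to 2.33), against 2.41% of all shared peaks. In the highest quintile of UTX fold the shares were 8.59% (6.38 to 11.3) at wide and 10.0% (8.17 to 12.1) at narrower peaks. The DMSO peaks were small, with a median width of 144 bp at wide sites and 142 bp at narrower sites, and 127 bp as the lowest. Of those at wide sites, 2 reached 600 bp. The members with the widest UTX peak in DMSO were the ribosomal RNA repeat on chromosome 17 and a pair at Sfi1, where the background exceeded the lowest 10.3 and 23.3 times. Next were the pair of Xrcc3 and Zfyve21 with 224 bp, Hjurp with 223 bp and Bcl2l1, an anti-apoptotic gene, with 209 bp. At Hjurp the UTX background in MI-503 exceeded the lowest 3.45 times. Their UTX peaks in MI-503 were 990, 838 and 828 bp wide. Of the 14 wide endoplasmic reticulum genes 5 had a UTX peak in DMSO (Syvn1, Manf, Hsp90b1, Herpud1 and Hspa5), against 60 of all 1156. Of the 8 Menin peaks in MI-503, 1 touched a member, at Chchd7 and Plag1, where UTX spanned 762 bp at 27.9-fold and Menin in DMSO 617 bp at 35.5-fold.

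The members are a slice of a continuous range. The nearest inside the threshold were Jpt1, Abcf3 and M6pr, each with 600 bp of UTX, over Menin peaks of 208, 528 and 363 bp. The nearest outside were Mylip, Bcl6 and Tctex1d2, each with 599 bp, over Menin peaks of 307, 439 and 400 bp. Within 5 bp of the threshold there were 40 members and 43 narrower peaks. The share of shared peaks that were wide ran from 11.8% on chromosome 14 to 17.3% on chromosome 12. Wide Menin peaks also lay under narrower UTX peaks. At Klf11, a Krüppel-like factor gene, UTX was called as 3 peaks of 338, 219 and 203 bp over 1 Menin peak of 1423 bp. At Ell, an elongation factor gene, UTX was called as 2 peaks of 344 and 479 bp over 1277 bp of Menin. Another UTX peak lay within 3 kb of 26.6% of wide and 31.5% of narrower shared peaks. Menin was also found at nearly all wide UTX peaks, since 1096 of 1146 on chromosomes 1 to 19, or 95.6% (94.3 to 96.7), shared a base with Menin, against 49.5% (48.6 to 50.3) of narrower UTX peaks. A wider peak has more bases that can be shared, and the part of that in the difference was not tested.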

How the data were processed

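The authors called peaks with MACS2 and list mm10 as the mouse build, per the submitters' processing notes, which give no version. No source used here names the aligner, the read filters or the q threshold. Each deposited list came from 1 library set against a vehicle input, per the peak names in the files. The deposited fold is a ratio, the summit pileup plus 1 over the local background plus 1. Each summit also has a deposited −log10 p-value and −log10 q-value, and the deposited score is derived from the latter. Whole summit fragments and backgrounds were recovered from fold and p-value in 100% of the peaks of both long lists (tolerance 0.001 in −log10 p). Absolute depth is unknown, so no limit was set on undetected peaks.

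Width is end minus start, and positions are printed from 1. Each UTX peak was paired with the Menin peak sharing most bases with it, at a minimum of 1 bp. Boundaries are starts and ends of 21900 protein-coding genes, and starts with strand come from 21263 promoter entries, which cover 17492 of those genes (RefSeq, GRCm38.p6, the assembly of mm10). Of 474 listed names 473 matched, in 18 lists by name, and 13 families were taken by symbol pattern. The members, lists and alternatives were chosen with earlier results of these data known. Genes were named by rule: the widest, the strongest, those with the widest or narrowest Menin peak, those nearest the threshold, those with the widest UTX peak in DMSO, the widest away from boundaries, up to 5 per list, and the narrower peaks with the widest Menin. Predicted genes were not named, and a gene that the rule takes is not reported here. Medians and shares are descriptions, with no test. Overlap, pairing and recovery were tested on simulated data. Python 3.11.15, numpy 2.4.6, scipy 1.17.1 and pandas 2.3.3 were used, and 12 alternatives were run.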

Additional observations from a re-analysis of the deposited data

How the results depend on the processing

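Across the 12 alternatives the median Menin width stayed higher at wide than at narrower UTX peaks, by 145 to 265 bp. Of the recomputed values 437 stayed within the counting error or limit set for each, 67 moved beyond it and none changed direction. Counting UTX peaks of at least 500 bp as wide gave 2016 members, Menin medians of 455 and 310 bp, and a difference of 145 bp. It gave narrower-peak shares of 70.1% at a boundary, 1.59% with UTX in DMSO and 41.4% with CCAAT, and 34.8% of genes wide. A limit of 800 bp gave 283 members, medians of 601 and 336 bp, a difference of 265 bp, narrower-peak shares of 73.3% at a boundary and 44.7% with CCAAT, and 5.08% of genes wide. Summing all Menin peaks touched gave 531 bp at wide peaks and a difference of 205 bp. Narrower peaks matched to the members' fold range had a Menin median of 357 bp (difference 145.5 bp), 80.7% at a boundary, 2.85% with UTX in DMSO, 47.8% with CCAAT and summits 31 bp apart, and 29.3% of genes were then wide. With −log10 q of at least 5 in both lists, the narrower peaks had 333 bp, 73.6% at a boundary and summits 37 bp apart. An overlap of at least 50% of the narrower peak also gave 37 bp. A boundary window of 500 bp gave 78.6% and 66.5% at wide and narrower peaks, and one of 3 kb gave 90.6% and 79.3%. Apart from the changed group sizes the cause of these moves was not tested. No paired analysis was possible because each condition has 1 library, and no replicate could be left out. Summits held a median of 49 Menin fragments at wide and 35 at narrower UTX peaks, and the part of depth in the Menin widths was not tested.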

Other observations

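Of the 181 wide peaks without a protein-coding boundary within 1 kb, 45 overlapped an annotated gene of another kind, of which 40 overlapped a long non-coding RNA. No such count is given for narrower peaks, so these counts cannot be called particular to wide peaks. At 51 members the summit lay outside protein-coding genes altogether. Wide UTX peaks without Menin in DMSO numbered 50 on chromosomes 1 to 19, and 2 more wide UTX peaks lay on other chromosomes. These were not members and were not described further.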
